A study of Homo sapiens with 4 samples.

Results

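Knockdown of POTEF-AS1 was compared with a control siRNA in LNCaP cells treated with dihydrotestosterone (DHT), as the log2 signal of the siPOTEF-AS1 array minus that of the siControl array, with 1 array a side. Of 33297 probe sets, 2540 carried a single gene symbol. They gave 2447 named genes, each read from its probe set with the highest mean signal. A named gene was taken as expressed when its highest value over the 4 arrays of the study reached 6.45, the median of all values of the named genes, and 1300 genes did. The description that follows is of these 1300 genes, by single genes, symbol families, Gene Ontology (GO) process terms, biotypes and gene lists. With 1 array a side there is no spread between replicates, no difference was tested, and precision is limited by the number of arrays.

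LNCaP is a human prostate cancer cell line that carries an androgen receptor and answers to androgen. The study used 4 Affymetrix arrays, 1 for each of siControl with vehicle, siControl with DHT, siPOTEF-AS1 with vehicle and siPOTEF-AS1 with DHT. In all 4 groups the cells came from serum-containing culture, spent 3 days in medium without phenol red and with 2.5% stripped serum, and received their siRNA 48 h ahead of the hormone. DHT was given at 10 nM and the vehicle was ethanol. How long the hormone acted, and how many siRNA sequences were used, are not given in the sources used here. No probe set carried the symbol POTEF-AS1 (0 of 33297), so the knockdown itself was not checked. Of 16 luminal prostate markers only AGR2 and POTEF were measured by name, and the other luminal markers were not analysed here.

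POTEF-AS1 is an antisense long noncoding RNA from the locus of POTEF, a member of a primate gene family expressed in prostate. DHT binds the androgen receptor, which then acts on chromatin as a transcription factor, and antisense RNAs can act on transcription or on RNA stability near or far from their own locus. Cells that sense foreign nucleic acid or interferon turn on a set of antiviral genes through the ISGF3 and IRF factors, which bind repeated GAAA letters in promoters.

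In DHT, 10 expressed genes were at least 1.5-fold higher with the knockdown (0.769% of 1300) and 7 were at least 1.5-fold lower (0.538%). The higher genes were SP140L, TNFSF18, IFI16, AGR2, BST2, RNA5SP42, LOC100996378, CMPK2, CDK19 and PRAMEF25. Of these, PRAMEF25 counted as expressed only through its siPOTEF-AS1 DHT array, where it was high. The lower genes were RNY4P3, RNA5SP85, PCDHB14, SVIP, ANKRD20A9P, PCDHB13 and RNY4P24. At 2-fold, 2 genes were higher (0.154%), SP140L and TNFSF18, and 0 were lower. At 1.2-fold, 94 genes were higher (7.23%) and 78 lower (6%). The median difference was 0.01, its robust SD over genes (the median absolute deviation scaled to an SD) was 0.16, and 86.8% of the genes lay within 1.2-fold. Differences were wider among dim genes, with a robust SD of 0.18 below the median of the mean signals and 0.14 above it. Just inside the 1.5-fold line were CDK19 (0.59), RNY4P24 (-0.59) and PRAMEF25 (0.59), and just outside it were RNA5SP343 (0.56), RNY4P16 (-0.55) and SLC25A51 (-0.54). With each array centred on its own median CDK19, CMPK2 and PRAMEF25 fell short of 1.5-fold, which left 7 higher genes.

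**Figure D1:**
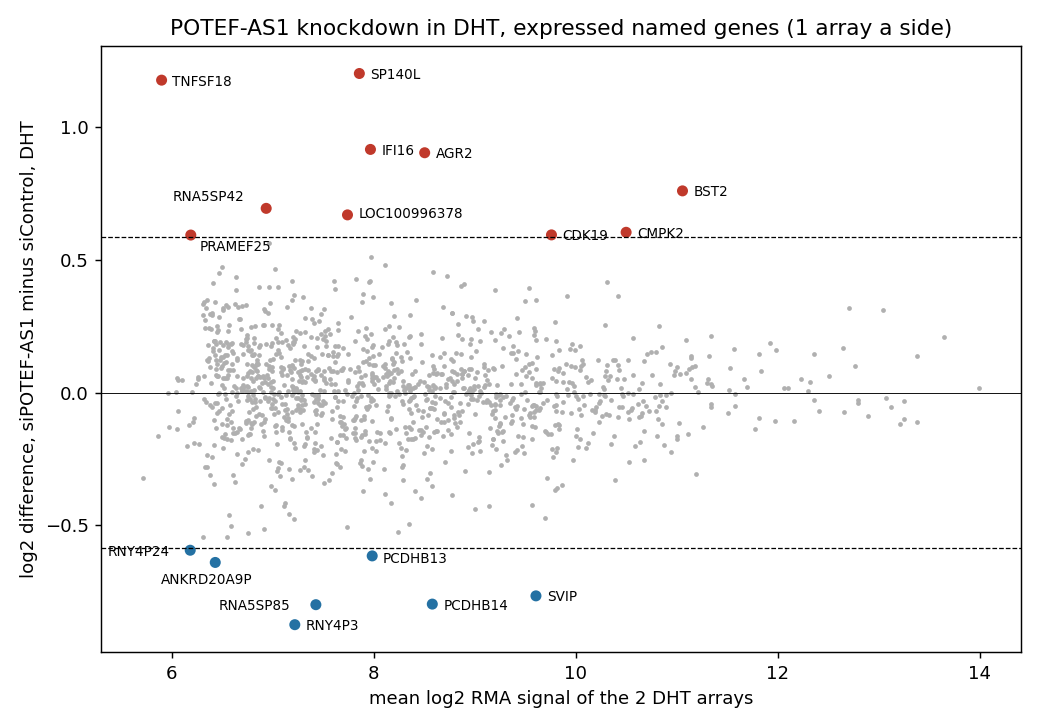
The log2 difference of the 2 DHT arrays (siPOTEF-AS1 minus siControl) is plotted against their mean log2 signal for the 1300 expressed named genes, 1 point a gene, with dashed lines at 1.5-fold. The 10 higher genes (red) reach 1.203 and the 7 lower genes (blue) reach -0.88, while 86.8% of all genes lie within 1.2-fold.

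The same difference was measured a second time on the vehicle arrays, none of which enters the DHT difference. There, 3 genes were at least 1.5-fold higher (0.231%) and 13 at least 1.5-fold lower (1%), and the robust SD was again 0.16. Of the 10 genes higher in DHT, 6 also had a vehicle difference above 0, beside 49.5% of all expressed genes (7 and 63.7% with each array centred on its median), and 2 were at least 1.2-fold higher there (4.92% of all). Of the 7 genes lower in DHT, 6 had a vehicle difference below 0, beside 50.4% of all expressed genes. With each array centred on its median 5 did, without PCDHB14, beside 472 of the 1300 expressed genes. As deposited, 4 of the 7 were at least 1.2-fold lower in vehicle (10.8% of all). CDK19 was past 1.5-fold upward in both treatments, and SVIP and ANKRD20A9P were past it downward in both. Each gene below is given with its log2 signal on all 4 arrays, in the order siControl vehicle, siControl DHT, siPOTEF-AS1 vehicle and siPOTEF-AS1 DHT.

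**Figure D2:**
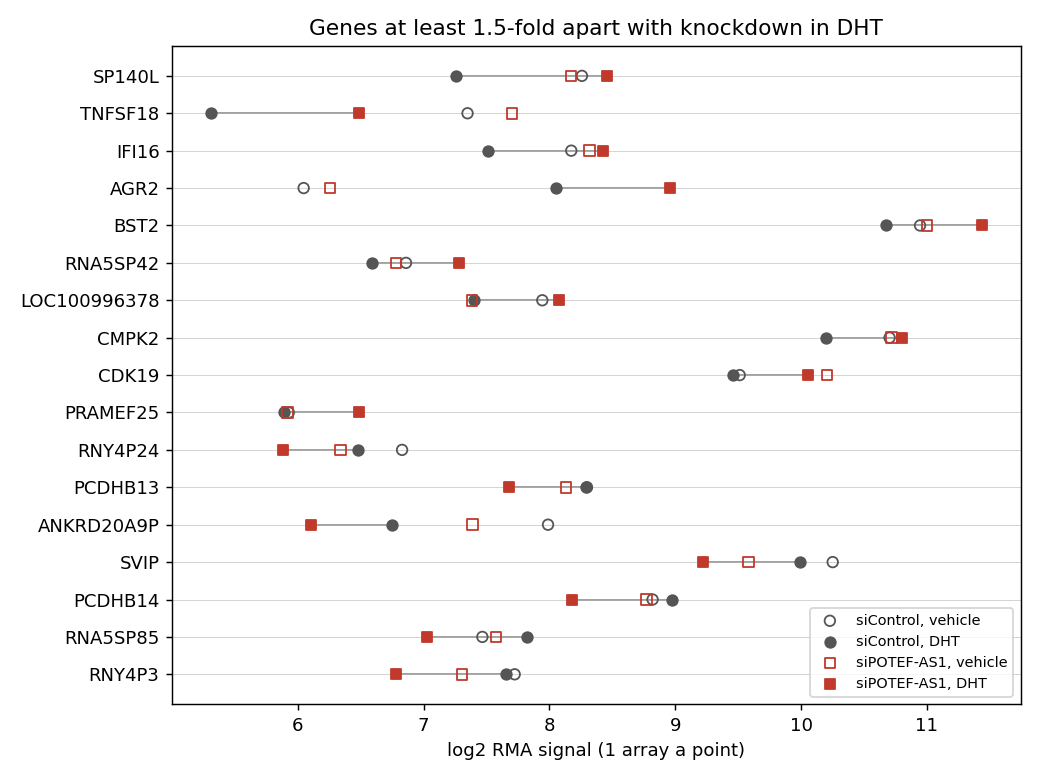
Log2 signals of the 17 genes at least 1.5-fold apart in DHT are shown on the 4 arrays, 1 array a point, with a grey line joining the 2 DHT arrays. The siControl DHT array (filled grey) stands below the other 3 arrays for every higher gene except AGR2 and LOC100996378. The siPOTEF-AS1 DHT array (filled red) does so for every lower gene. The genes were chosen by their DHT difference, which already places these arrays below the other DHT array.

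Of the genes at least 1.5-fold higher in DHT, SP140L, IFI16, BST2 and CMPK2 belong to the antiviral interferon response. SP140L, a chromatin reader of the SP100 nuclear body family that lies between SP140 and SP100 in the RefSeq gene order, had log2 signals of 8.26, 7.25, 8.17 and 8.46. Its siControl DHT array was the low one, and the other 3 arrays lay close together. The difference was 1.203 in DHT (2.30-fold higher) and -0.09 in vehicle. The gene (ENSG00000185404) spans chr2:231191899-231265339 on the plus strand of GRCh37 in the authors' table.

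IFI16, a nuclear and cytoplasmic sensor of DNA whose neighbour AIM2 is another such sensor, had signals of 8.17, 7.51, 8.32 and 8.42. The siControl DHT array was again the low one, with a difference of 0.92 in DHT (1.89-fold higher) and 0.14 in vehicle. The gene (ENSG00000163565) spans chr1:158979717-159024945 on the plus strand of GRCh37 in the authors' table. BST2, also called tetherin, holds budding enveloped viruses at the cell surface, and its signals were 10.94, 10.68, 11.00 and 11.44. For BST2 the siControl DHT array was the lowest and the siPOTEF-AS1 DHT array the highest, 0.76 apart (1.69-fold), while the vehicle difference was 0.06. CMPK2, a mitochondrial nucleotide kinase encoded next to the antiviral gene RSAD2, had signals of 10.70, 10.20, 10.72 and 10.80. Its DHT difference was 0.60 (1.52-fold) and its vehicle difference 0.02, and the low array was once more siControl with DHT.

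A list of 56 interferon-stimulated genes had 9 members measured by name, of which 8 were expressed and EPSTI1 lay below the floor. All 8 expressed members had a difference above 0 in DHT, beside 52.9% of all expressed genes. This count was 8 of 8 under each array scaling tried. Centring, which shifts every DHT difference by the same -0.02, could not have changed it, since the smallest difference was 0.10. The median difference of the 8 members was 0.29, beside 0.01 for all expressed genes. At 1.5-fold 3 were higher and 0 lower, beside 0.769% and 0.538% of all expressed genes. At 1.2-fold 4 were higher and 0 lower, beside 7.23% and 6%. In vehicle 3 of 8 lay above 0 and the median was -0.08, or -0.02 with each array centred on its median. The siControl DHT array was the lowest of the 4 arrays for all 8 members, beside 22.6% of all expressed genes. A DHT difference above 0 already places it below the siPOTEF-AS1 DHT array. Among the 688 expressed genes above 0 in DHT it was the lowest for 294. The list was assembled with earlier results of these data known, and IFI16 is not on it.

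The members that were not 1.5-fold apart had smaller differences. PLSCR1, a phospholipid scramblase with antiviral activity, had signals of 9.51, 9.01, 9.41 and 9.40 and a DHT difference of 0.39. OASL, an antiviral protein related to oligoadenylate synthetases, had signals of 12.24, 11.83, 11.97 and 12.02 and differed by 0.19. IFI44L, an interferon-induced gene, had signals of 12.56, 12.28, 12.37 and 12.43 and differed by 0.14. PLSCR1, OASL and IFI44L all stood below their siControl vehicle level on the siPOTEF-AS1 DHT array, as did IFITM3. IFITM1 and IFITM3 encode membrane proteins that block virus entry. IFITM1 had signals of 13.44, 13.31, 13.48 and 13.45 and differed by 0.14. IFITM3 had signals of 12.89, 12.72, 12.82 and 12.82 and differed by 0.10. The differences of IFI44L, IFITM1 and IFITM3 were smaller than the robust SD of 0.16 over all expressed genes. Among the HLA genes only HLA-J, a class I pseudogene, was expressed, with a difference of 0.32 in DHT and -0.16 in vehicle.

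The letters GAAA, any 2 bases and GAAA again, a core of the interferon response element, were searched on both strands in RefSeq promoters of assembly GRCh38.p14, from 250 bases before to 50 after each gene start. They occurred in 3.57% of 35116 promoters and, by gene, in 4.38% of 27305 genes. Of the 9 measured interferon genes, 8 had a promoter in the table and 6 of these held the letters, namely BST2, EPSTI1, IFI44L, IFITM1, IFITM3 and PLSCR1. Of the 10 higher genes, 7 had a promoter there and 1, BST2, held the letters. Of the 7 lower genes, 3 had one and 0 held the letters. Overlapping copies count separately. Below, the promoters of BST2, PLSCR1 and IFITM3 are printed because they hold the letters, in capitals, and that of SP140L because it has the largest difference and lacks them. BST2 is at chr19:17405581-17405880, minus strand, PLSCR1 at chr3:146544546-146544845, minus strand, IFITM3 at chr11:320811-321110, minus strand and SP140L at chr2:230326943-230327242, plus strand.
BST2: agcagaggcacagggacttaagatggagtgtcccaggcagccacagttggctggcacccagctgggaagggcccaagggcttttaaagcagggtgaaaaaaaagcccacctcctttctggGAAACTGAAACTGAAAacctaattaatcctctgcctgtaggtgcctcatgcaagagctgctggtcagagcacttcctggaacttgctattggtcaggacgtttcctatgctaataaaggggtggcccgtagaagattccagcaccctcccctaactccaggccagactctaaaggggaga
PLSCR1: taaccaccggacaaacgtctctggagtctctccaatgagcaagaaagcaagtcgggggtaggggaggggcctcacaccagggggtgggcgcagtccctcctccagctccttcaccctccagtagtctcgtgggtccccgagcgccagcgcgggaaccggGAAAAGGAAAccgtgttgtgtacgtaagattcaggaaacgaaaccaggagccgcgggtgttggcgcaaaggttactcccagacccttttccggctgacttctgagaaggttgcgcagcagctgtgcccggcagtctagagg
IFITM3: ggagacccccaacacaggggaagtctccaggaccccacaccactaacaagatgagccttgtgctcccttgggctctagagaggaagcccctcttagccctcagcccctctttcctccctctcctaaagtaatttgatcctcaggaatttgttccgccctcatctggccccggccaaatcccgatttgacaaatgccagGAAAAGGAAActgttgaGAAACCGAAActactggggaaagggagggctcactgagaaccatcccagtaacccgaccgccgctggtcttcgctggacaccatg
SP140L: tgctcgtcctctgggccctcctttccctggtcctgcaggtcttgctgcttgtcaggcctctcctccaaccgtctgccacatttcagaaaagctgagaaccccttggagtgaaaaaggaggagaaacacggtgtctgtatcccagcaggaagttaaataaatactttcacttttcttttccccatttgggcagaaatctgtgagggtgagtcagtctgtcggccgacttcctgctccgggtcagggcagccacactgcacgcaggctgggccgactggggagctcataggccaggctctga
In BST2 the capitals cover 2 copies that overlap, starting 130 and 124 bases before the gene start. In PLSCR1 the copy starts 91 bases before it. In IFITM3 the copies start 52 and 35 bases before it. The windows of SP140L, IFI16 and CMPK2 do not contain these letters, so the 4 most different interferon-related genes divide into BST2, which holds them, and 3 that do not.

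TNFSF18, the ligand of the T cell receptor GITR, stood at 7.35, 5.31, 7.70 and 6.49. Both vehicle arrays were above both DHT arrays, and the siControl DHT array lay below the floor of 6.45, so that no fold is given. Its log2 difference was 1.18 in DHT and 0.35 in vehicle. The other expressed genes with a TNF superfamily symbol were TNFSF15, a ligand of death receptor DR3 (0.26 in DHT), and TNFRSF25, that receptor (0.03).

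Genes with immune process terms numbered 65 expressed. At 1.2-fold 4 were higher and 0 lower, a share of 6.15% higher beside 7.23% of all expressed genes. Their median was 0.04 in DHT and 0.00 in vehicle. TNFSF18 led them, followed by GBAP1. GBAP1, a pseudogene of the lysosomal glucocerebrosidase gene, had signals of 7.86, 7.74, 7.91 and 8.16, with the siPOTEF-AS1 DHT array highest.

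A list of 56 Toll-like receptor signalling genes had 2 members measured by name. JUN, a subunit of the AP-1 transcription factor, had signals of 9.43, 8.66, 9.71 and 9.06 and was higher with the knockdown by 0.40 in DHT and 0.29 in vehicle. MAPK8, the kinase JNK1 that phosphorylates JUN, differed by 0.00 in DHT. TNFAIP3, a ubiquitin-editing inhibitor of NF-kB signalling, had signals of 7.40, 8.04, 7.001 and 8.14, with differences of 0.10 in DHT and -0.40 in vehicle.

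Apoptosis terms covered 60 expressed genes, 29 of them above 0 and 31 below in DHT, with a median of -0.00 (-0.02 to 0.01 under the other scalings) beside 0.01 for all expressed genes. At 1.2-fold 5 were higher (8.33%, beside 7.23% of all expressed genes) and 1 was lower (1.67%, beside 6%). The 3 highest were TNFSF18, PRAMEF25 and PLSCR1, and the 3 lowest were GADD45A, APOPT1 and FEM1B. PRAMEF25, 1 of the 5 higher genes, counted as expressed only through its siPOTEF-AS1 DHT array, where it was high. GADD45A, a stress-induced inhibitor of cell cycle progression, had signals of 7.12, 7.16, 7.10 and 6.804 and was the lowest, at -0.35 in DHT and -0.02 in vehicle. APOPT1, a mitochondrial protein, differed by -0.23 in DHT and -0.26 in vehicle. FEM1B, a substrate receptor of a ubiquitin ligase, differed by -0.21 and -0.11. Neither APOPT1 nor FEM1B reached 1.2-fold in DHT. The list of pro-apoptotic genes had 0 members measured by name, and of the anti-apoptotic list BCL2 differed by 0.13 in DHT.

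Among genes induced by androgen, AGR2 was the most different. AGR2 is a protein disulfide isomerase of the endoplasmic reticulum made by secretory epithelia, and its signals were 6.05, 8.05, 6.25 and 8.96. Both DHT arrays were above both vehicle arrays, and the knockdown array was the higher one in each treatment, by 0.90 in DHT (1.87-fold) and 0.21 in vehicle. ZBTB16, a zinc finger repressor, had signals of 9.09, 10.24, 9.16 and 10.60 and differed by 0.36 in DHT. MICAL1, an oxidoreductase of actin filaments, had signals of 7.34, 9.32, 7.64 and 9.67 and was higher in both treatments, by 0.35 and 0.30. SGK1, a kinase of ion transport and survival, went the other way, with signals of 5.01, 8.38, 5.07 and 7.97 and a DHT difference of -0.42.

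Besides POTEF, described below at 0.51 in DHT, the list held 4 more expressed genes. Their DHT differences were -0.04 for the growth factor receptor IGF1R, 0.04 for LRIG1, an inhibitor of growth factor receptors, -0.11 for the centromere protein CENPN and -0.11 for the kallikrein protease KLK15. IGF1R stood at 8.81, 11.36, 8.92 and 11.32, so that its 2 DHT arrays were nearly level. Of the 36 listed genes, 9 were expressed by name, with 5 above 0, 4 at least 1.2-fold higher and 1 at least 1.2-fold lower. The shares over all expressed genes were 52.9%, 7.23% and 6%. The median of the 9 listed genes was 0.04 in DHT and 0.17 in vehicle. Genes with androgen and steroid response terms numbered 7, with a median of 0.11 in DHT and 0.02 in vehicle. STARD4, a cholesterol carrier, led these at 0.35 in DHT and -0.16 in vehicle. NSDHL, an enzyme of cholesterol synthesis, followed at 0.25 and 0.10.

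The POTE genes are a recently duplicated family with ankyrin repeats. POTEF, the gene that lies on the strand opposite POTEF-AS1, had signals of 6.30, 7.72, 6.64 and 8.23 at chr2:130832909-130878140 on the minus strand of GRCh37 in the authors' table. The knockdown array was higher in both treatments, by 0.51 in DHT and 0.34 in vehicle. POTEG had signals of 5.91, 6.97, 5.93 and 7.39 and differed by 0.42 in DHT and 0.03 in vehicle. POTEJ had signals of 9.56, 9.67, 9.56 and 9.93 and differed by 0.26 and -0.00. POTEI, the brightest, stood at 12.72, 12.69, 12.73 and 12.62 and differed by -0.07 in DHT, with the siPOTEF-AS1 DHT array the lowest. A second, dimmer POTEI probe set gave 0.54 in DHT and 0.18 in vehicle, so that the 2 probe sets of this gene disagreed. The 4 genes had a median of 0.34 in DHT and 0.02 in vehicle. In DHT 3 of 4 were at least 1.2-fold higher, beside 7.23% of all expressed genes. The family members are near-identical in sequence, and how far their probes read each other, or antisense RNA, was not tested.

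CDK19 and SVIP differed in the same direction and by a similar amount in both treatments. CDK19, a kinase of the Mediator complex, had signals of 9.51, 9.46, 10.20 and 10.06. Both knockdown arrays were above both control arrays, by 0.59 in DHT and 0.69 in vehicle. SVIP, a small inhibitor of degradation at the endoplasmic reticulum that binds the ATPase VCP, had signals of 10.25, 9.99, 9.58 and 9.22. Both knockdown arrays were below both control arrays, by -0.77 in DHT and -0.67 in vehicle. CDK19 spans chr6:110931181-111136519 on the minus strand of GRCh37 in the authors' table.

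ANKRD20A9P, a pseudogene, stood at 7.99, 6.75, 7.39 and 6.11. It was lower with the knockdown in both treatments, and its siPOTEF-AS1 DHT array lay below the floor, so that only log2 differences are given, -0.64 in DHT and -0.60 in vehicle. ZDHHC20, a palmitoyltransferase, had signals of 8.52, 8.69, 9.12 and 9.10 and was higher in both, by 0.41 in DHT and 0.60 in vehicle. ID2, an inhibitor of helix-loop-helix transcription factors, had signals of 7.13, 8.77, 8.01 and 9.05, and its difference was 0.29 in DHT against 0.88 in vehicle. GALNT1, which starts mucin-type O-glycosylation, had signals of 9.62, 9.93, 9.26 and 9.46 and was lower in both treatments, by -0.47 in DHT and -0.37 in vehicle. The other 3 measured genes of the unfolded protein response and degradation list lay above 0 in DHT, by less than 1.2-fold. DNAJB11, a chaperone partner of the endoplasmic reticulum, was at 0.08 in DHT and 0.17 in vehicle. MANF, a secreted stress protein, was at 0.10 and -0.15. SLC3A2, a subunit of amino acid transporters, was at 0.15 and -0.10, so that like SVIP it lay below 0 in vehicle, as did MANF.

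**Figure D3:**
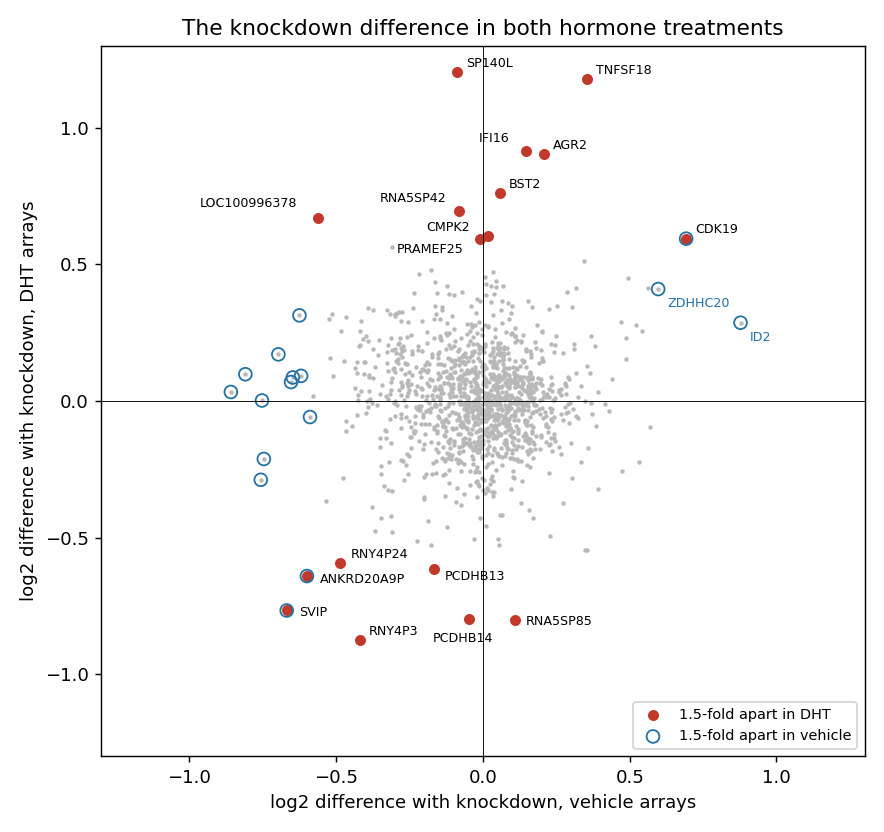
The knockdown difference on the DHT arrays is plotted against that on the vehicle arrays for the 1300 expressed named genes, 1 point a gene, on log2 scales. CDK19, SVIP and ANKRD20A9P are past 1.5-fold in both, whereas SP140L, BST2 and PCDHB14 lie near 0 on the vehicle axis.

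Genes of the protocadherin beta cluster were lower with the knockdown in DHT. Protocadherins are cadherin-related adhesion proteins, and the beta genes lie in a row on chromosome 5, where PCDHB13, PCDHB14 and PCDHB15 are neighbours. PCDHB14 had signals of 8.82, 8.98, 8.77 and 8.18 and PCDHB13 of 8.30, 8.29, 8.13 and 7.68. In both genes the siPOTEF-AS1 DHT array was the low one and the other 3 lay close together. The differences in DHT were -0.80 (1.74-fold lower) for PCDHB14 and -0.62 (1.53-fold lower) for PCDHB13, against -0.05 and -0.17 in vehicle. PCDHB3, elsewhere in the cluster, had signals of 6.91, 7.09, 7.08 and 6.67 and differed by -0.43 in DHT and 0.17 in vehicle. PCDHB15 had signals of 7.34, 7.19, 7.33 and 6.93 and differed by -0.26 in DHT and -0.01 in vehicle.

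Of 5 protocadherin genes measured by name, 4 were expressed and PCDHB1 was below the floor. All 4 were below 0 in DHT (47.1% of all expressed genes were), 3 were at least 1.2-fold lower (6% of all), and the median was -0.52. In vehicle it was -0.03, or 0.03 with each array centred on its median. The siPOTEF-AS1 DHT array was the lowest of the 4 arrays for all 4 genes, beside 28.3% of all expressed genes. A DHT difference below 0 already places it below the siControl DHT array. Among the 612 expressed genes below 0 in DHT it was the lowest for 368. The beta genes resemble each other, and how far their probes read each other was not tested. The RefSeq promoters (GRCh38.p14) of these 4 genes are printed because the longest run of letters they all share is 10 bases, TGGTGGCGCT, in capitals. It was looked for after the values were seen. PCDHB13 is at chr5:141213669-141213968, plus strand, PCDHB14 at chr5:141223093-141223392, plus strand, PCDHB15 at chr5:141245145-141245444, plus strand and PCDHB3 at chr5:141100223-141100522, plus strand.
PCDHB13: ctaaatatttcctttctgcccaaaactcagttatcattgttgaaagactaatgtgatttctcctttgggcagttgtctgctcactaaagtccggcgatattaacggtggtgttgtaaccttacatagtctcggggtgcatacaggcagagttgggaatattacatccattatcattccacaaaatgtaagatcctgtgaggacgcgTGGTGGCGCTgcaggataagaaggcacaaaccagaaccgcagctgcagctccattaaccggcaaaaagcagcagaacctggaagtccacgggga
PCDHB14: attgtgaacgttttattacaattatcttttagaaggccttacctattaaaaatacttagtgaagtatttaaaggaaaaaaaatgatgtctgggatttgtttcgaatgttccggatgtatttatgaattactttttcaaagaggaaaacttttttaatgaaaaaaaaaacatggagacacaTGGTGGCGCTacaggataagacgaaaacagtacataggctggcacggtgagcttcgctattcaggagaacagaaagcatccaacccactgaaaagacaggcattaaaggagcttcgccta
PCDHB15: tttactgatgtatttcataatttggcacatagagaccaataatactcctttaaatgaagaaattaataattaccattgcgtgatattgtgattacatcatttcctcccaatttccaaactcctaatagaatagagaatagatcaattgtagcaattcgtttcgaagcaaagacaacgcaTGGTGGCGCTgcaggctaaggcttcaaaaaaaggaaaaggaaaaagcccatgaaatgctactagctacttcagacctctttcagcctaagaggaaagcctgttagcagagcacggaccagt
PCDHB3: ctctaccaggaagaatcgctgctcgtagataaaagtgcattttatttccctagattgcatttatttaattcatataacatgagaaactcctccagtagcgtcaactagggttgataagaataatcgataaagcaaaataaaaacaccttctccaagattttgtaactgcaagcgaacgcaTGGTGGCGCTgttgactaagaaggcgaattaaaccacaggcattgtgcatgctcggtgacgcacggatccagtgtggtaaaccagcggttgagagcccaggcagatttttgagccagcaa
The run started 44 bases before the gene start in PCDHB13, 70 in PCDHB14 and PCDHB3 and 71 in PCDHB15. On either strand it occurred in 42 of 35116 promoters (0.120%), of which 8 were among the 14 promoters of PCDHB genes and 34 were of other genes. The 8 include the 4 promoters that defined the run, which hold it by construction.

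Among cell cycle genes more lay 1.2-fold below than above. Of 68 expressed genes with cell cycle terms, 1 was at least 1.2-fold higher, CDK19 (1.47%, beside 7.23% of all expressed genes). At least 1.2-fold lower were 8, a share of 11.8% beside 6% of all expressed genes. The next highest after CDK19 were GPS2 (0.24) and SGSM3 (0.18). The median of the 68 genes was -0.02 in DHT and 0.03 in vehicle. There 1 gene lay 1.2-fold above and 3 lay 1.2-fold below, beside 4.92% and 10.8% of all expressed genes. SPC24, a subunit of the NDC80 complex that ties kinetochores to microtubules, had signals of 8.35, 7.99, 8.40 and 7.48. RFC3, a subunit of the clamp loader of DNA replication, had signals of 8.58, 8.07, 8.71 and 7.70. In both genes both DHT arrays were below both vehicle arrays, and the siPOTEF-AS1 DHT array was the lowest.

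The DHT differences were -0.51 for SPC24 and -0.37 for RFC3, against 0.05 and 0.13 in vehicle. CASC5, the kinetochore scaffold also known as KNL1, likewise had both DHT arrays below both vehicle arrays, with signals of 8.30, 7.67, 8.23 and 7.33 and a DHT difference of -0.34. MLF1IP, the centromere protein also known as CENPU, had signals of 7.87, 7.35, 7.87 and 7.03 and differed by -0.33. PTTG1, the securin that holds separase until anaphase, had signals of 7.93, 7.9998, 7.74 and 7.73 and was lower in both treatments, by -0.27 in DHT and -0.19 in vehicle. CDC20, an activator of the anaphase-promoting complex, differed by -0.10 in DHT. The list of mitotic and cell cycle regulators held 3 expressed genes by name, PTTG1, CENPN and CDC20, and their median was -0.11 in DHT and -0.19 in vehicle. TADA2A, an adaptor of histone acetyltransferase complexes, differed by -0.32 in DHT. CASC5, MLF1IP and TADA2A are named as the 3 lowest genes with chromatin terms. The 3 highest with these terms were TSSK6 (0.29), CHD9 (0.22) and ATXN7 (0.21).

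Genes with DNA repair and damage terms were above 0 in 13 of 39 cases, beside 52.9% of all expressed genes. At 1.2-fold 0 were higher and 3 lower (7.69%, beside 6% of all). Chromatin terms gave 1 higher and 4 lower of 48 (8.33%), also near that background. Histone genes, 17 expressed, had 0 members past 1.2-fold and a median of -0.07. Zinc finger genes with a ZNF symbol, 36 expressed, had 1 higher (2.78%) and 5 lower (13.9%) at 1.2-fold, beside 7.23% and 6% of all. The ZNF median was -0.05. The higher one was ZNF503-AS2, an antisense transcript and no zinc finger gene. ZNF354B had the lowest difference in that family at -0.43, then ZNF253 at -0.42. Ribosomal protein symbols, pseudogenes included, were above 0 in 8 of 32 cases in DHT, beside 52.9% of all expressed genes, with a median of -0.06. In vehicle the count was 16 of 32 as deposited, beside 49.5% of all expressed genes, and 25 of 32 with centred arrays, beside 63.7%. The 3 lowest were the pseudogenes RPS3AP25 (-0.32), RPS15AP1 (-0.31) and RPS14P3 (-0.29), while RPS15, a protein of the small ribosomal subunit, was the highest at 0.24.

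Metabolic and transport genes had single members apart from the rest. Of 35 expressed genes with lipid and sterol terms, 4 were higher (11.4%) and 1 was lower (2.86%) at 1.2-fold. Over all expressed genes 7.23% were higher and 6% lower. The lipid and sterol medians were 0.03 in DHT and 0.10 in vehicle. The lower gene, FITM2, which acts in lipid droplet formation, had signals of 8.48, 8.59, 8.71 and 8.10 and differed by -0.49 in DHT and 0.23 in vehicle. SLC25A51, the mitochondrial NAD+ carrier, had signals of 6.53, 6.81, 6.88 and 6.27 and likewise differed by -0.54 in DHT but 0.35 in vehicle. UQCRH, a subunit of respiratory complex III, had signals of 7.26, 7.33, 7.32 and 6.92 and differed by -0.42 in DHT and 0.06 in vehicle. For these 3 genes the siPOTEF-AS1 DHT array was the lowest of the 4. Solute carriers as a family (18 expressed) had a median of 0.01 with 0 higher and 2 lower (11.1%, beside 6% of all) at 1.2-fold. Genes with mitochondrial and energy terms had 0 higher and 1 lower of 25 (4%).

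Small noncoding RNAs made up several of the most different entries. RNA5SP42, a 5S ribosomal RNA pseudogene, had signals of 6.86, 6.59, 6.78 and 7.28, with differences of 0.69 in DHT and -0.08 in vehicle. RNA5SP85, of the same family, had signals of 7.47, 7.83, 7.58 and 7.03, with differences of -0.80 and 0.11. So within 1 family of near-identical sequences 1 member was past 1.5-fold in each direction. Over the 61 expressed 5S entries, 47 were above 0 in DHT (42 to 44 under the other array scalings), beside 52.9% of all expressed genes. Their median was 0.09. In vehicle 10 of 61 were above 0 (15 under the other scalings), with a median of -0.23. Of all expressed genes 49.5% were above 0 there as deposited, and 63.7% with each array centred on its median. In DHT 12 lay at least 1.2-fold above (19.7%, beside 7.23% of all) and 5 below (8.2%, beside 6%). In vehicle 1 lay above (1.64%, beside 4.92%) and 27 below (44.3%, beside 10.8%). The siPOTEF-AS1 vehicle array was the lowest of the 4 for 42 of the 61 entries (28.5% of all expressed genes). The siPOTEF-AS1 DHT array was the highest for 37 (28.8% of all). These entries are dim and share sequence, so they are not separate measurements.

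RNY4P3, a pseudogene of the Y4 RNA that binds the Ro protein, had signals of 7.72, 7.65, 7.30 and 6.78 and differed by -0.88 in DHT and -0.42 in vehicle. RNY4P24, of the same kind, had signals of 6.83, 6.48, 6.34 and 5.88, with the siPOTEF-AS1 arrays below the floor and log2 differences of -0.59 and -0.49. Of 34 Y RNA entries measured, 10 were expressed, 5 above and 5 below 0 in DHT. At 1.2-fold 0 were higher and 3 lower, beside 7.23% and 6% of all expressed genes. RNY4P16 differed by -0.55 in DHT but 0.36 in vehicle, and RNY4P18 by 0.26 and -0.42. The Y RNA entries thus did not share 1 direction. Mitochondrial tRNAs, 7 expressed, were below 0 in 7 of 7 cases in DHT, beside 47.1% of all expressed genes, with a median of -0.05. In vehicle 7 of 7 were below 0 as deposited, beside 50.4% of all, with a median of -0.13. With each array centred on its median 5 of 7 were below 0 in vehicle, beside 472 of all 1300 expressed genes.

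LOC100996378, an entry with no assigned name, had signals of 7.94, 7.40, 7.38 and 8.07, and its difference was 0.67 in DHT and -0.56 in vehicle. The 81 expressed LOC entries were above 0 in 59 cases in DHT, beside 52.9% of all expressed genes, with a median of 0.08. In vehicle 23 were above 0, beside 49.5% of all, with a median of -0.09. With each array centred on its median 33 were, beside 63.7%. PRAMEF25, one of a cluster of near-identical PRAME family genes, stood at 5.93, 5.89, 5.92 and 6.48. Only its siPOTEF-AS1 DHT array reached the floor, and the log2 difference was 0.59. By biotype, 375 expressed genes were protein coding in the authors' table, with a median of 0.01. At 1.5-fold 3 of these were higher and 0 lower, beside 0.769% and 0.538% of all expressed genes. The 67 pseudogenes had a median of -0.03, with 3 higher (4.48%, beside 7.23% of all) and 10 lower (14.9%, beside 6%) at 1.2-fold. For 758 expressed genes the table gave no biotype, and the lower genes PCDHB13, PCDHB14 and SVIP were among them. Of the 1300 expressed genes 746 had a GO process term that could be read, and so did 7 of the 17 genes past 1.5-fold. The classes overlap in their members.

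**Figure D4:**
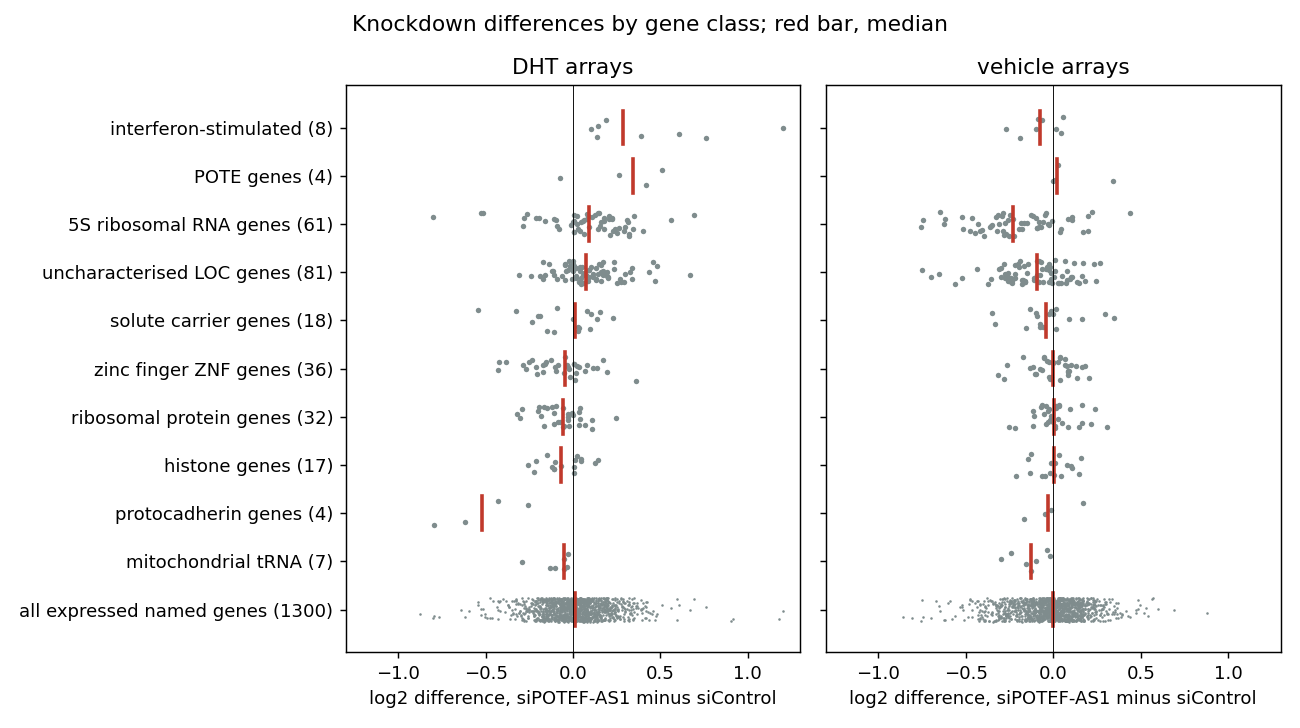
Log2 knockdown differences are shown by gene class on the DHT arrays (left) and the vehicle arrays (right), 1 point an expressed gene, with a red bar at the class median and the number of genes in brackets. The interferon-stimulated genes have a median of 0.29 in DHT and -0.08 in vehicle, the protocadherins -0.52 and -0.03 (0.03 with each array centred on its median), and the 5S ribosomal RNA genes 0.09 and -0.23.

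The 4 arrays had medians between 6.72 and 6.77 and upper quartiles between 8.74 and 8.80. Among 3503 probe sets with no annotated transcript that reached the floor, 6.02% were past 1.5-fold in DHT and 7.02% in vehicle, above the 1.31% of the expressed named genes in DHT. Both DHT arrays were at or above the floor for 8 of the 10 higher and 5 of the 7 lower genes. Of the basal cell keratins, KRT5 stood at 6.57, 6.53, 5.98 and 6.47 and KRT15 lay below the floor on all 4 arrays. The lists of fibroblast, leukocyte, endothelial and neuroendocrine markers had 0 members measured by name.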

How the data were processed

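RNA of 4 LNCaP samples, 1 per group, was labelled with the Affymetrix whole transcript kit per the labels' protocols. The authors deposited 1 log2 signal for each probe set and array. The submitters' processing notes name RMA and Affymetrix Expression Console but no version of either. RMA sets all arrays to a common distribution, so that a change in total RNA cannot be seen, and it compresses differences of dim probe sets. A second deposited table held the same log2 values (largest difference 1.78e-15).

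From these, with Python 3.11.15, pandas 2.3.3, numpy 2.4.6 and statsmodels 0.14.6, differences between arrays were taken and counted at 1.2-fold, 1.5-fold and 2-fold. The filter was the 50th percentile of named-gene values (6.45). Counting was tested on simulated data. No test across arrays was possible with 1 array a side. Of the 2447 symbols, 78 had several probe sets. Genes were named in the text if at least 1.5-fold apart (the 15 largest at most, filled to 10 in each direction), if among the 3 highest or 3 lowest of a class, or if on a list with under 12 measured members. ZDHHC20 and ID2 were added for their vehicle values. The members, lists and classes were chosen with earlier results of these data known. Lists hold 393 genes, 45 measured by name. Gene order and promoters are from RefSeq (GRCh38.p14), and gene coordinates from the authors' table (GRCh37). Array scaling, filter, probe set choice, value table and fold were varied.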

Additional observations from a re-analysis of the deposited data

Results flagged for a closer look

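Some genes past 1.5-fold in DHT, in the deposited values, had a vehicle difference on the other side of 0, with 1 array a side, and the difference between the treatments was not tested. SP140L was at 1.203 in DHT and -0.09 in vehicle. LOC100996378 was at 0.67 and -0.56, RNA5SP42 at 0.69 and -0.08, and PRAMEF25 at 0.59 and -0.01, which became 0.05 in vehicle with each array centred on its median. RNA5SP85 was at -0.80 in DHT and 0.11 in vehicle. The median of the interferon-stimulated list was 0.29 in DHT and -0.08 in vehicle, a difference that was likewise not tested.

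Probe sets with an annotated transcript but no single symbol, 14021 of them past the floor, also held differences. In DHT 7 were at least 2-fold higher with the knockdown and 2 at least 2-fold lower, against 0 and 7 in vehicle. The one with the largest difference, whose transcript the tables used here pair with no gene, had log2 signals of 11.16, 9.50, 10.91 and 10.69 in the order used above. Its siControl DHT array was the low one. One of the 2 lower probe sets is annotated as the Y RNA hY3, with a difference of -1.06 in DHT and -0.13 in vehicle. At 1.5-fold 81 of these probe sets were higher and 71 lower in DHT, 1.08% of them, beside 1.31% of the expressed named genes.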

How the results depend on the processing

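With 1 array a side every count rests on single arrays. No paired analysis was possible because each group has 1 array, and a fit over both treatments would give their mean difference, not that in DHT. The 10 higher and 7 lower genes became 23 and 19 with no expression filter, 6 and 3 with a floor at the 75th percentile (8.15), and 2 and 0 at 2-fold. Without rRNA, misc_RNA, snRNA, snoRNA and mitochondrial entries, a choice made after seeing the data, there were 9 and 4. With both DHT arrays required at or above the floor, also chosen afterwards, there were 8 and 5. Centring each array gave 7 and 7, without CDK19, CMPK2 and PRAMEF25, and shifted the differences by -0.02 in DHT and 0.06 in vehicle. Of 56 class medians 9 then changed sign in DHT and 12 in vehicle, the protocadherin median among the latter (-0.03 to 0.03). The share of expressed genes above 0 in vehicle went from 49.5% to 63.7%, and PRAMEF25 and PCDHB14 turned to 0.05 and 0.01 there. Quantile normalization gave 9 and 8, and removing the trend on signal gave 9 and 7, in both cases without PRAMEF25. Averaging probe sets, or the second table, left 10 and 7. The 100 alternative values of single gene differences all lay within 1 robust SD of the values given. Much of this was fixed in advance. Each of these genes had 1 probe set and the second table held the same values, so neither setting could move them. Centring moved all DHT differences by the same -0.02. Of the alternative class medians 377 also lay within 1 robust SD, and the second table could not move these either. The 1 that did not was the immediate early list at the stricter filter, 0.29 in place of 0.11. No detection call was used here, so signal over background is not known for dim genes.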

Other observations

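Immediate early genes, which growth factors and stress turn on within a short time, were measured for 5 members by name. JUN and ID2 were at least 1.2-fold higher with the knockdown in DHT, by 0.40 and 0.29, against 0.29 and 0.88 in vehicle. These 2 of 5 higher and 0 lower stand beside 7.23% and 6% of all expressed genes. The list median was 0.11 in DHT and 0.15 in vehicle. CTGF, a matricellular protein, was at 0.11 in DHT, IER3, an early stress gene, at -0.02, and the nuclear receptor NR4A1 at -0.15. NR4A1 had log2 signals of 7.88, 9.31, 8.03 and 9.16 in the order used above, with both DHT arrays above both vehicle arrays.

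Genes of RNA handling and translation showed single members in either direction. RBM4B, an RNA-binding protein, was higher with the knockdown by 0.36 in DHT and 0.15 in vehicle. EEF1A1, the elongation factor that brings tRNA to the ribosome, was at 0.31 and -0.11. DDX39A, an RNA helicase of mRNA export, was at -0.29 in DHT, and GEMIN6, of the complex that assembles spliceosomal ribonucleoproteins, at -0.25. Over 39 expressed genes with splicing and processing terms the median was 0.02 in DHT and 0.00 in vehicle, and over 54 with translation terms it was -0.02 and 0.03. Of the p53 target list, CCNG1, cyclin G1, was at -0.14 in DHT and 0.05 in vehicle.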
